A study of Homo sapiens with 12 samples.

Results

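Integrins and laminins were followed here as one family of adhesion genes in TYK-nu cells, an ovarian cancer cell line. The members were all genes of the deposited table whose symbol names an integrin alpha subunit, an integrin beta subunit or a laminin chain, and the rule used no measured value. It found 38 of the 17508 genes in the table, namely 18 alpha subunits, 8 beta subunits and 12 laminin chains, which were all the matching symbols in the annotation. The study placed 12 libraries in 4 groups of 3: cells given DMSO, the vehicle, for 24 h; cells given 15 µM cisplatin for 24 h; cells given DMSO for 72 h; and cells given 15 µM cisplatin for 72 h. All 4 groups carried the same line, described as a gift and not authenticated. The cells were grown and treated in triplicate, so that p-values measure the spread between replicates of 1 line. Cisplatin is a platinum drug that cross-links DNA. The comparisons ask how the drug changed the RNA at each time and, in the ratio of exon to intron reads, whether processing of the RNA changed with it.

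Integrins are receptors of the cell surface, each built of 1 alpha and 1 beta subunit, that tie the extracellular matrix outside the cell to the actin skeleton within. The alpha subunit largely sets what is bound: some pairs recognise the RGD motif of fibronectin and vitronectin, some laminins and some collagens, while a further set is found mainly on leukocytes. Laminins are secreted trimers of an alpha, a beta and a gamma chain and form much of the basement membrane, the sheet on which epithelia rest. In ovarian cancer these genes are best known for the attachment of tumour cells to the lining of the abdomen and for their survival there.

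Counts summed over exons and introns ran from 18526830 to 68753262 per library. The libraries at 72 h tended to be deeper, with 26921033 to 68753262 counts against 18526830 to 36911333 at 24 h. Introns took 6.26% to 7.17% of them. The markers of the labelled tissue were mixed. Of 10 epithelial and serous markers in the table, 5 reached the count filter, led by the keratin KRT18. PAX8, the usual marker of serous carcinoma, had at most 2 counts in any library and CDH1 and SOX17 were listed at 0. Of 6 mesenchymal markers, 5 reached the count filter and 1 was listed at 0. VIM held most of their summed level, at group means of 6966 to 8334 CPM (exon counts scaled to the size of the library), while FN1 was at 37.3 to 52.1 CPM. Genes known from endothelium were also abundant, among them PECAM1 at 1387 to 2451, CDH5 at 684 to 1009 and TEK at 141 to 151 CPM. Of 8 endothelial and platelet markers, 5 reached the count filter and 2 were listed at 0. A listing at 0 does not show absence in this table, since CALM3, a calmodulin gene in general use, was also listed at 0 exon counts in all libraries while its introns held 2209 counts in all. Because these are bulk samples, fewer cells of a type and less RNA per cell cannot be told apart.

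Of the 38 members, 20 had enough exon counts to be tested and 16 enough intron counts. ITGA7 passed mainly through the 72 h libraries, since it reached 10 counts in only 2 of the 6 libraries at 24 h. Among the 18 members not tested, ITGA4, LAMA1 and LAMA4 were listed at 0 exon counts throughout, and ITGA2B and LAMA2 reached at most 11 and 18 counts. The other 13 (ITGB2, ITGB4, ITGB6, ITGB7, ITGA8, ITGA11, ITGA9, ITGAD, ITGAL, ITGAM, LAMA3, LAMB4 and LAMC3) had between 1 and 8 counts in their best library. Together the members took 0.478% to 0.507% of the exon counts in DMSO at 24 h, 0.486% to 0.492% in cisplatin at 24 h, 0.588% to 0.612% in DMSO at 72 h and 0.612% to 0.651% in cisplatin at 72 h. Both 72 h groups lay above both 24 h groups. ITGB1 and LAMB1 alone held 56.1% to 61.5% of the members' exon counts.

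Levels between genes were compared per length, as exon CPM per kb of annotated exon, although the length that the authors counted over is not given in the sources used here. Averaged over the 12 libraries, ITGB1, the beta subunit shared by most matrix receptors, stood highest at 108 CPM per kb, followed by the laminin chains LAMB1 at 91.3 and LAMC1 at 75.1 and by ITGA10 at 70.1. LAMB2 at 36.8, ITGA5 at 35.3 and LAMA5 at 27.2 formed a middle range. ITGA6 was at 10.5, ITGB5 at 6.05, ITGAV at 5.28, ITGA3 at 2.08, ITGAE at 1.77 and ITGA2 at 1.40. The remaining 7 tested members lay below 1 CPM per kb. The fibronectin receptor alpha subunit ITGA5 was thus the most abundant RGD-binding alpha, ITGA10 the most abundant collagen-binding alpha, and LAMA5 the only laminin alpha chain with enough counts to test. Among the members described here most neighbours in this order overlapped across the libraries, ITGB1 with LAMB1 included. The ranges of neighbours were separate at only 4 places: between LAMA5 (lowest 22.4) and ITGA6 (highest 12.8), between ITGA6 (lowest 8.43) and ITGB5 (highest 6.36), between ITGAV (lowest 3.51) and ITGA3 (highest 2.89), and between ITGB8 (lowest 0.162) and ITGA7 (highest 0.111).

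**Figure D1:**
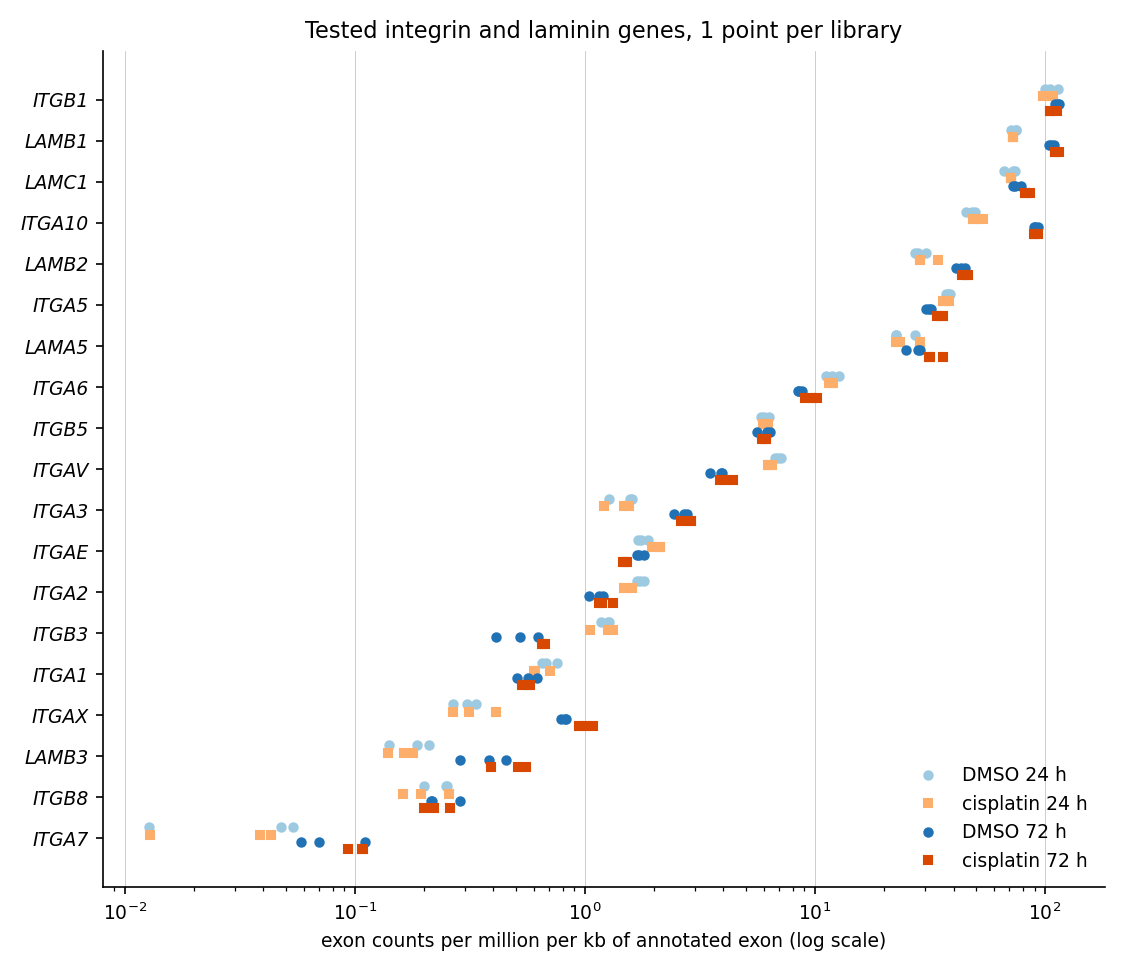
Exon level of 19 of the 20 tested members, in exon CPM per kb of annotated exon on a log axis, with 1 point for each of the 12 libraries (blue circles DMSO, orange squares cisplatin, pale 24 h, dark 72 h). ITGB1, LAMB1, LAMC1 and ITGA10 lie furthest to the right, and the dark points of ITGA10 and LAMB1 stand to the right of their pale points while those of ITGAV and ITGB3 stand to the left.

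No member passed the test between cisplatin and DMSO at either time. With edgeR's quasi-likelihood test and Benjamini-Hochberg adjustment over all 10444 genes tested, 0 of 20 members passed an adjusted p of 0.05 at 24 h and 0 of 20 at 72 h, where the share of all genes called was 0% and 0.0287%. Before adjustment, 1 member at 24 h and 7 members at 72 h had a p under 0.05, beside 260 and 1311 of the 10444 genes. These counts over all genes rested in part on single libraries. At 24 h the count was 421 without replicate 1 of DMSO and 397 without replicate 2 of cisplatin, and at 72 h it was 641 without replicate 2 of DMSO and 796 without replicate 1 of cisplatin. DESeq2 called 0 members at 24 h and 1 at 72 h, ITGA5. The median exon change of the members was -0.03 on the log2 scale at 24 h and 0.09 at 72 h, against 0.00 over all genes at both times. On either side of 0, 7 of the 20 members were higher than DMSO at 24 h compared with 15 at 72 h. Sets of libraries that did not overlap were found for 3 members at 24 h (6.42% of all genes), ITGAE higher in cisplatin and ITGAV and ITGA2 lower. At 72 h they were found for 8 members (18.14% of all genes), of which 7 were higher in cisplatin and 1, ITGAE, was lower.

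The members nearest the threshold at 72 h came from several roles. LAMA5, the alpha chain of the widespread laminins of adult basement membranes, was at 388, 320.3 and 321 CPM in DMSO at 24 h and 322, 408 and 336 CPM in cisplatin at 24 h. At 72 h the DMSO libraries held 407, 357 and 399 CPM and the cisplatin libraries 454, 448 and 513 CPM. All 3 cisplatin libraries at 72 h lay above all 3 DMSO libraries, a log2 difference of 0.28 ± 0.08 (adjusted p = 0.177, edgeR). The intron counts of LAMA5 were also higher without overlap, by 0.23 ± 0.11 (adjusted p = 0.728, edgeR). Introns lacked overlap at 72 h for 1 of the 16 members tested, LAMA5, and for 13.37% of all genes. ITGA5, the fibronectin receptor subunit, was at 285, 279 and 274 CPM in DMSO at 24 h and 265, 282 and 272 CPM in cisplatin at 24 h. Values at 72 h were 225, 231 and 235 CPM in DMSO and 266, 251 and 264 CPM in cisplatin. Its 72 h cisplatin libraries again lay above the DMSO libraries, by 0.18 ± 0.05 (adjusted p = 0.159, edgeR). Which of these is called depended on the method, since DESeq2 called ITGA5 (0.17, adjusted p = 0.0257) and edgeR without a filter on low counts called LAMA5 (0.28, adjusted p = 0.000281).

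LAMC1, the gamma chain that most laminins share, was at 610.1, 562 and 623 CPM in DMSO at 24 h and 603, 599.6 and 598 CPM in cisplatin at 24 h. In DMSO at 72 h the level was 613, 623 and 664 CPM, and in cisplatin it was 726, 689 and 701 CPM. It too was higher without overlap in cisplatin at 72 h, by 0.16 ± 0.05 (adjusted p = 0.225, edgeR). The libraries at 72 h also did not overlap for ITGA6, with a difference of 0.17 ± 0.06, for ITGB3, with 0.34 ± 0.14, for ITGAX, with 0.33 ± 0.13, and for LAMB1, with 0.07 ± 0.04. None of them passed (adjusted p = 0.278, 0.341, 0.332 and 0.516 in edgeR). The difference of ITGB3 was 0.21 (adjusted p = 0.852, edgeR) without replicate 2 of DMSO at 72 h. ITGB1, at -0.07 ± 0.05, and ITGB5, at -0.01 ± 0.06, overlapped between the groups.

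ITGAE, the alpha subunit that marks T cells resident in epithelia, took opposite signs at the 2 times. It was at 12.4, 11.2 and 11.5 CPM in DMSO at 24 h and 14, 12.9 and 14 CPM in cisplatin at 24 h. The 72 h libraries held 11.3, 11.9 and 11.2 CPM in DMSO and 9.85, 10.1 and 9.62 CPM in cisplatin. Every cisplatin library lay above every DMSO library at 24 h and below every DMSO library at 72 h, with log2 differences of 0.22 ± 0.09 and -0.21 ± 0.09. Neither passed (adjusted p = 1 and 0.338, edgeR), and the test of the difference between the 2 effects gave -0.43 ± 0.13 with an adjusted p of 0.454 in edgeR. Over all members, 0 of 20 passed that test of a difference (0% of all genes; DESeq2 called 0), with a median of 0.15. Before adjustment 6 members had a p under 0.05, beside 985 of the 10444 genes. ITGB7, the beta subunit that pairs with ITGAE, had at most 5 counts in any library. HASPIN, a kinase gene on the opposite strand within ITGAE, differed by -0.06 ± 0.11 and 0.16 ± 0.12 between cisplatin and DMSO at the 2 times. Its part in the counts of ITGAE was not tested.

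**Figure D2:**
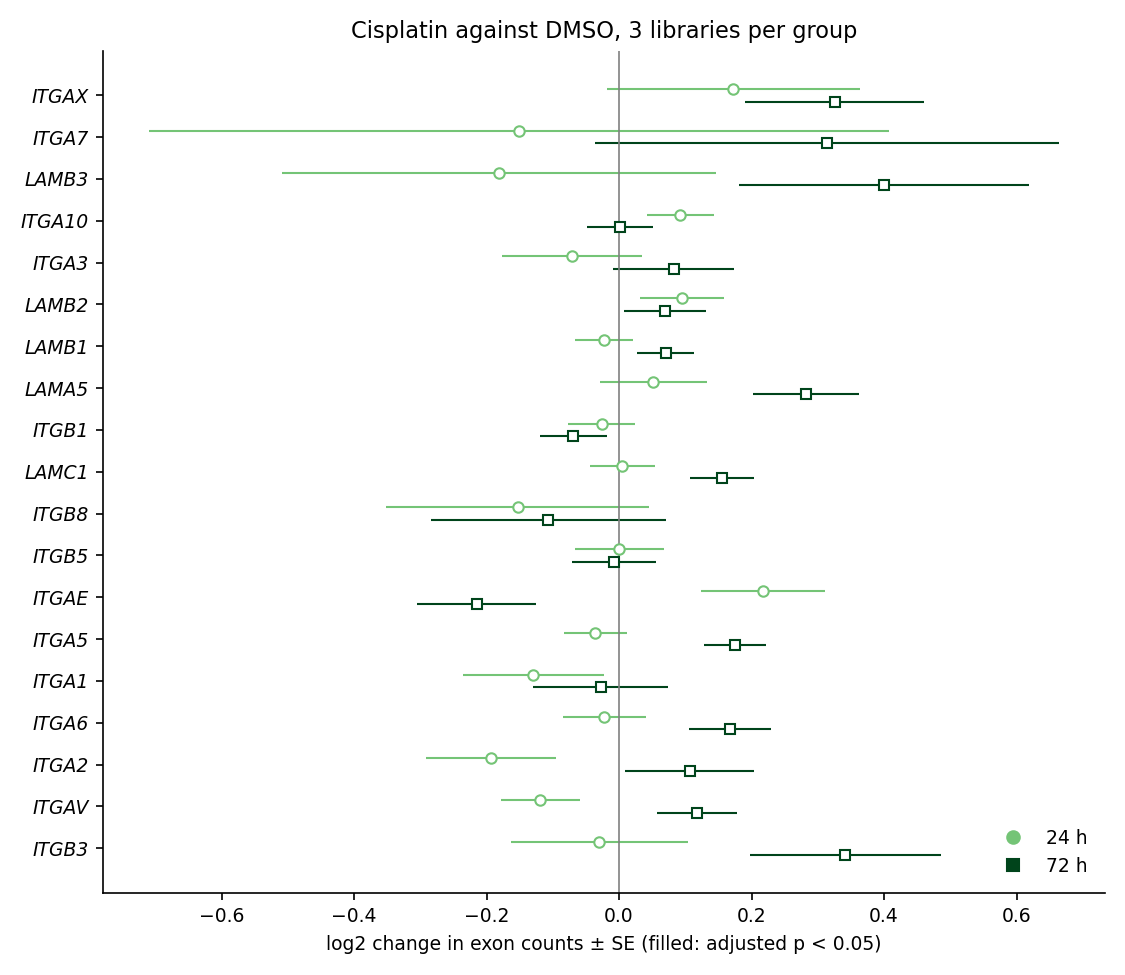
Log2 change in exon counts between cisplatin and DMSO (± SE, 3 libraries per group) for 19 of the 20 tested members at 24 h (light green circles) and 72 h (dark green squares). All symbols are open because no member passed an adjusted p of 0.05, and 14 of the squares lie to the right of 0.

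Intron counts, from which the study inferred incomplete splicing, gave no call for cisplatin either. The source of these reads was not tested. In 30 genes without any exon count, the introns held at least 1000 counts in all. Of the 16 members tested, 0 passed at 24 h (0.0208% of all genes called) and 0 at 72 h (0.0416%), and 0 passed the test of a difference between the times (0.0416%). Before adjustment, p was under 0.05 for 0, 1 and 0 members in these comparisons, beside 481, 621 and 549 of the 9618 genes. DESeq2 called 0 members in each of these comparisons. The members' median intron change was 0.04 at 24 h and -0.01 at 72 h.

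Between 24 h and 72 h most members differed, in both arms. Between 24 and 72 h in DMSO, 14 of 20 members passed, 8 higher and 6 lower, and between 24 and 72 h in cisplatin 15 of 20 passed, 10 higher and 5 lower. Most other genes did so too: 65.1% of all genes were called in DMSO and 63.5% in cisplatin, so the members' shares of 70% and 75% stood near the background. Of the 20 members, 18 had at least 10 exon counts in every library at 24 h, and 12 of these passed in DMSO (6 higher, 6 lower) and 13 in cisplatin (8 higher, 5 lower). The medians of the 18 were 0.07 in DMSO and 0.08 in cisplatin, against 0.08 and 0.17 for all 20 and 0.01 and 0.02 over all genes. Among the 18, the 5 laminin chains all had log2 values above 0, with 3 called higher in DMSO, 5 in cisplatin and 0 lower. The 9 integrin alpha subunits among them were split, with 3 higher and 5 lower in DMSO and 3 higher and 4 lower in cisplatin. Without overlap between the 24 h and 72 h libraries, 8 members were higher and 6 lower in DMSO, and 10 were higher and 6 lower in cisplatin. Such a lack of overlap over time was common, with 67.39% of all genes in DMSO and 67.18% in cisplatin. The DMSO comparison over time and the cisplatin comparison at either time share libraries, as do the cisplatin ones, and depth rose with time as given above.

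ITGA10 (chr1:145891208-145910111, minus strand, GENCODE 44 on GRCh38), a collagen-binding alpha subunit best known from cartilage, gave the smallest adjusted p of any member. Its exon counts were at 302, 282 and 309 CPM in DMSO at 24 h and 304, 337 and 311 CPM in cisplatin at 24 h. At 72 h the DMSO libraries held 563, 558 and 581 CPM and the cisplatin libraries 562, 558 and 583 CPM. The 6 libraries at 72 h lay well above the 6 at 24 h, and the cisplatin and DMSO libraries of the same time overlapped. The log2 rise was 0.93 ± 0.05 in DMSO (1.91-fold; adjusted p = 1.18e-13) and 0.84 ± 0.05 in cisplatin (1.79-fold; adjusted p = 9.28e-13; edgeR). ITGB1, with which it pairs, moved by 0.09 ± 0.05 and 0.05 ± 0.05 over the same interval (adjusted p = 0.131 and 0.446, edgeR).

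Of the other collagen-binding alphas, ITGA2 fell in both arms, ITGA1 passed in DMSO and not in cisplatin, and ITGA11, with at most 1 count, was not tested. ITGA2 (chr5:52989340-53094779, plus strand), the collagen receptor subunit of platelets and epithelia, was at 14.3, 13.7 and 13.3 CPM in DMSO at 24 h and 11.6, 12.6 and 11.8 CPM in cisplatin at 24 h. Values at 72 h were 8.2, 9.44 and 9.09 CPM in DMSO and 10.4, 9.09 and 9.32 CPM in cisplatin. It fell in both arms, with log2 changes of -0.63 ± 0.10 in DMSO (adjusted p = 6.6e-06) and -0.33 ± 0.10 in cisplatin (adjusted p = 0.00525; edgeR), with no overlap between 24 h and 72 h in either arm. ITGA1, 30130 bases away from ITGA2 on the same strand of chromosome 5, differed by -0.30 ± 0.11 in DMSO (adjusted p = 0.0161, edgeR) and by -0.20 ± 0.10 in cisplatin (adjusted p = 0.102, edgeR). The DMSO call for ITGA1 was lost without replicate 2 of DMSO at 24 h (-0.23, adjusted p = 0.103) and without replicate 1 of DMSO at 72 h (-0.23, adjusted p = 0.0846).

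Among the laminin-binding alphas, ITGA3 rose and ITGA6 fell. ITGA3 (chr17:50055968-50090481, plus strand), a partner of ITGB1 in epithelia, was at 15.3, 15.7 and 12.5 CPM in DMSO at 24 h and 11.8, 15.3 and 14.5 CPM in cisplatin at 24 h. In DMSO at 72 h the level was 26.3, 24 and 27.1 CPM, and in cisplatin it was 25.6, 28.3 and 28.3 CPM. The rise was 0.82 ± 0.10 in DMSO (adjusted p = 1.16e-07) and 0.97 ± 0.10 in cisplatin (adjusted p = 7.18e-09; edgeR), with all 72 h libraries above all 24 h libraries. ITGA6 (chr2:172427354-172506459, plus strand), which pairs with ITGB1 or ITGB4, was at 74.7, 79.4 and 85.2 CPM in DMSO at 24 h and 76.5, 79.2 and 79.7 CPM in cisplatin at 24 h. The 72 h libraries held 57.1, 56.3 and 58.7 CPM in DMSO and 68.3, 60.1 and 65.1 CPM in cisplatin. It fell in both arms, with log2 changes of -0.47 ± 0.06 in DMSO (adjusted p = 5.3e-07) and -0.28 ± 0.06 in cisplatin (adjusted p = 0.000346; edgeR), again without overlap, and ITGB4 never had more than 4 counts.

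ITGA7, the laminin receptor subunit of muscle, was near the floor, at 0.115, 0.489 and 0.431 CPM in DMSO at 24 h and 0.634, 0.531 and 1 CPM in DMSO at 72 h. Its fitted changes were 1.13 ± 0.46 and 1.59 ± 0.44 (adjusted p = 0.0339 and 0.00276, edgeR). The DMSO call rested on single libraries: without replicate 1 of DMSO at 24 h it was 0.69 (adjusted p = 0.205), and without replicate 3 of DMSO at 72 h it was 0.76 (adjusted p = 0.228). Since ITGA7 entered the test through the 72 h libraries, no direction is drawn from it; BLOC1S1 also overlaps it on the opposite strand.

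The vitronectin receptor subunits ITGAV and ITGB3 fell together in both arms. ITGAV (chr2:186590010-186680901, plus strand), the alpha subunit that several beta subunits share, was at 129, 133 and 138 CPM in DMSO at 24 h and 122, 125 and 121 CPM in cisplatin at 24 h. At 72 h the DMSO libraries held 75.1, 67.9 and 76.1 CPM and the cisplatin libraries 85.2, 74.4 and 78.5 CPM. It fell, with log2 changes of -0.87 ± 0.06 in DMSO (adjusted p = 1.16e-11) and -0.63 ± 0.06 in cisplatin (adjusted p = 2.87e-09; edgeR). ITGB3 (chr17:47253827-47313743, plus strand), the beta subunit of the vitronectin and platelet fibrinogen receptors, was at 8.67, 7.99 and 8.62 CPM in DMSO at 24 h and 7.17, 8.56 and 9.05 CPM in cisplatin at 24 h. Values at 72 h were 4.28, 2.81 and 3.56 CPM in DMSO and 4.43, 4.51 and 4.56 CPM in cisplatin. It fell, with log2 changes of -1.25 ± 0.14 in DMSO (adjusted p = 5.62e-08) and -0.87 ± 0.13 in cisplatin (adjusted p = 4.79e-06; edgeR). These were the lowest values among the tested members in both arms. For both genes every 72 h library lay below every 24 h library. Of 8 endothelial and platelet markers, among which PECAM1 was the most abundant, 5 had enough counts to test and GP9 and PF4 were listed at 0. None of the 5 was called higher and 2, PECAM1 and CDH5, were called lower in DMSO (median of the 5, -0.09), while 1 was called higher and the same 2 lower in cisplatin (median -0.38). Their summed level, most of it PECAM1 and CDH5, went from 3760 to 3900 CPM at 24 h to 2434 to 2743 CPM at 72 h, and the part of these markers in the ITGB3 result was not tested.

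Other beta partners of ITGAV did not pass. ITGB5 was at 39.4 ± 1.6 CPM (SD, n = 3) in DMSO at 24 h and 39.4 ± 2.52 CPM (SD, n = 3) in DMSO at 72 h, with exon changes of -0.00 ± 0.07 and -0.01 ± 0.07 in the 2 arms. ITGB8, which activates latent TGF-beta together with ITGAV, changed by 0.06 ± 0.19 and 0.11 ± 0.19. The edgeR values were far from the threshold (adjusted p = 0.98 and 0.902 for ITGB5, 0.785 and 0.623 for ITGB8). ITGA5, whose values are given above, fell in DMSO, with -0.28 ± 0.05 (adjusted p = 1.78e-05, edgeR), and differed by -0.07 ± 0.05 in cisplatin (adjusted p = 0.211, edgeR), and the difference between these 2 changes did not pass (0.21 ± 0.07, adjusted p = 0.454, edgeR).

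**Figure D3:**
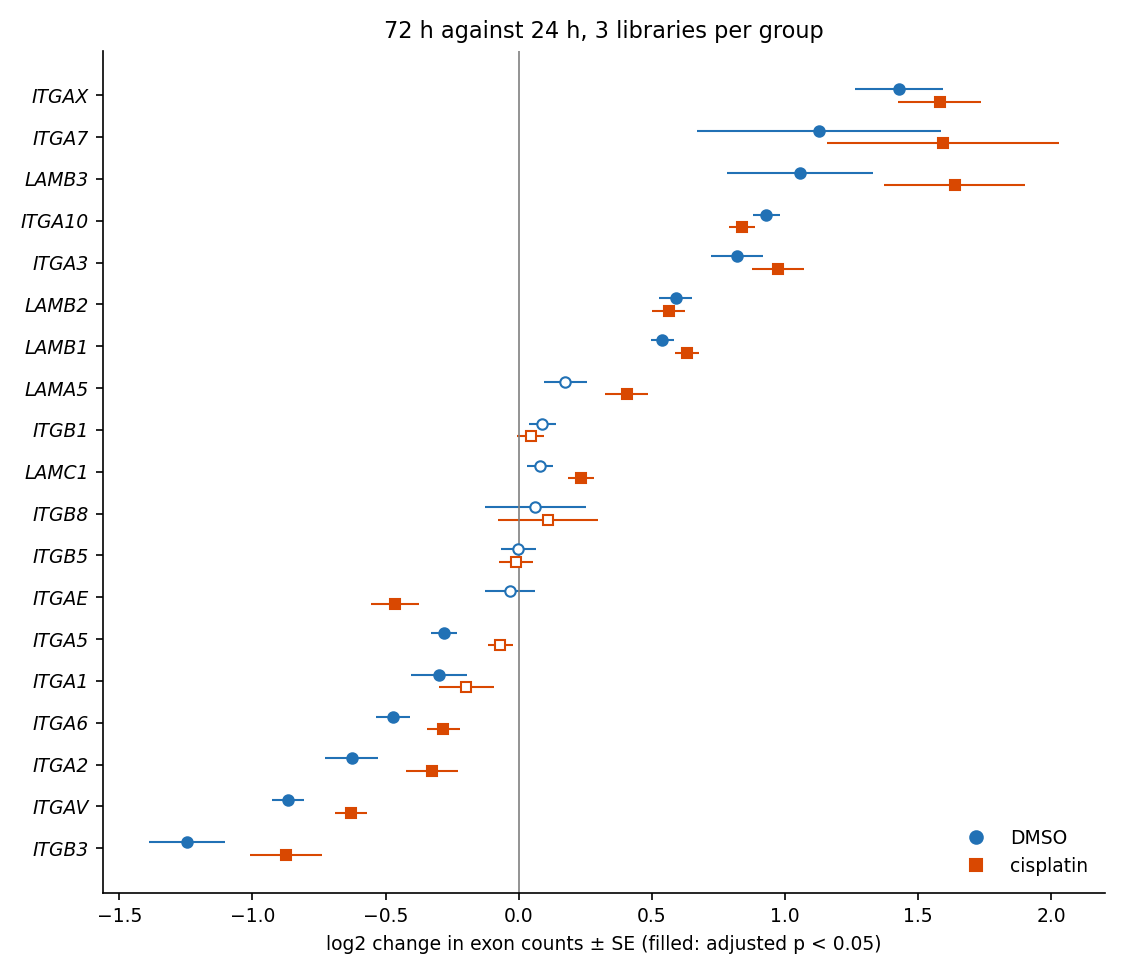
Log2 change in exon counts from 24 h to 72 h (± SE, 3 libraries per group) for 19 of the 20 tested members in DMSO (blue circles) and cisplatin (orange squares), filled where the adjusted p was under 0.05 in edgeR. The laminin chains lie to the right of 0, and ITGB3, ITGAV, ITGA2 and ITGA6 to the left in both arms.

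All 3 tested beta chains of laminin rose in both arms. LAMB1 (chr7:107923799-108003213, minus strand), one of the commonest beta chains, was at 1394, 1321 and 1387 CPM in DMSO at 24 h and 1349, 1345 and 1344 CPM in cisplatin at 24 h. In DMSO at 72 h the level was 1939, 1982 and 2039.7 CPM, and in cisplatin it was 2143, 2057 and 2059.6 CPM. All 72 h libraries exceeded all 24 h libraries, by 0.54 ± 0.04 in DMSO (1.45-fold; adjusted p = 1.32e-10) and 0.63 ± 0.04 in cisplatin (1.55-fold; adjusted p = 8.93e-12; edgeR). LAMB2 (chr3:49121114-49133118, minus strand), the beta chain of kidney and synaptic laminins, was at 209, 193 and 187 CPM in DMSO at 24 h and 196, 235 and 197 CPM in cisplatin at 24 h. The 72 h libraries held 296, 283 and 307 CPM in DMSO and 299.8, 317 and 313 CPM in cisplatin. It rose by 0.59 ± 0.06 in DMSO (adjusted p = 1.51e-08) and by 0.56 ± 0.06 in cisplatin (adjusted p = 3.37e-08; edgeR).

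LAMC1 and LAMA5, chains that assemble with them, passed in cisplatin and not in DMSO. LAMC1 rose by 0.23 ± 0.05 in cisplatin (adjusted p = 0.000233, edgeR) and differed by 0.08 ± 0.05 in DMSO (adjusted p = 0.149, edgeR). LAMA5 rose by 0.41 ± 0.08 in cisplatin (adjusted p = 0.000115, edgeR) and differed by 0.18 ± 0.08 in DMSO (adjusted p = 0.0588, edgeR). The DMSO call was gained in 5 alternatives, among them without replicate 1 of DMSO at 24 h (0.27, adjusted p = 0.00346) and without replicate 2 of DMSO at 72 h (0.23, adjusted p = 0.0259). ADRM1, a proteasome gene that overlaps LAMA5 on the opposite strand, changed by -0.18 ± 0.06 and -0.26 ± 0.06 over the same intervals. Since the strand setting of the counting is not given, reads of the 2 genes cannot be told apart. The change over time did not differ between the arms past the threshold for either gene (0.15 ± 0.07 for LAMC1 and 0.23 ± 0.11 for LAMA5, adjusted p = 0.522 and 0.534, edgeR).

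LAMB3, a beta chain of the laminin of epidermal anchorage, was scarce but higher at 72 h. LAMB3 (chr1:209614870-209652425, minus strand) was at 0.652, 0.977 and 0.862 CPM in DMSO at 24 h and 0.831, 0.645 and 0.759 CPM in cisplatin at 24 h. At 72 h the DMSO libraries held 2.1, 1.33 and 1.77 CPM and the cisplatin libraries 2.57, 2.39 and 1.81 CPM. The changes were 1.06 ± 0.27 in DMSO and 1.64 ± 0.26 in cisplatin (adjusted p = 0.00174 and 9.07e-06, edgeR). The groups of either arm did not overlap. LAMA3, the alpha chain of that laminin, had at most 6 counts.

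ITGAX (chr16:31355134-31382999, plus strand), the alpha subunit of complement receptors on dendritic cells and macrophages, was scarce and rose most in DMSO among the members with at least 10 exon counts in every library. Its exon counts were at 1.88, 2.16 and 2.37 CPM in DMSO at 24 h and 1.88, 2.9 and 2.22 CPM in cisplatin at 24 h. Values at 72 h were 5.79, 5.84 and 5.55 CPM in DMSO and 6.66, 7.7 and 7.07 CPM in cisplatin. The rise was 1.43 ± 0.17 in DMSO (adjusted p = 6.76e-08) and 1.58 ± 0.16 in cisplatin (adjusted p = 5.43e-09; edgeR). ITGB2, its beta partner, had at most 1 count in any library. Of 8 leukocyte markers that were listed, 3 had enough counts to test, while PTPRC and NKG7 were listed at 0. The summed level of the list, nearly all of it CD68, a lysosomal gene, was 323 to 380 CPM at 24 h and 593 to 658 CPM at 72 h. Of the 3 tested, 2 were called higher and 1 lower in each arm. The part of such markers in the ITGAX result was not tested. ITGAE over time differed by -0.03 ± 0.09 in DMSO (adjusted p = 0.78, edgeR) and fell in cisplatin, with -0.46 ± 0.09 (adjusted p = 0.000101, edgeR). The difference between the arms did not pass, as given above.

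The sequence upstream of the start sites is shown for the 4 members with the smallest adjusted p over time that have an entry among the RefSeq promoters, because 3 of them rose and 1 fell. Each run holds the 100 bases before the RefSeq start (GRCh38.p14), read 5′ to 3′ on the gene's strand, with any match to 6 motifs in capitals. The motifs were the GC box GGGCGG, the CCAAT box CCAAT, the TATA box TATAAA, the AP-1 motif TGANTCA, the E box CACGTG and the TEAD motif GGAATG, searched on both strands with overlaps kept. The windows are chr1:145910051-145910150 on the minus strand for ITGA10, chr7:108003162-108003261 on the minus strand for LAMB1, chr3:49133051-49133150 on the minus strand for LAMB2 and chr2:186589956-186590055 on the plus strand for ITGAV. Whether these cells start transcription there was not tested.
ITGA10: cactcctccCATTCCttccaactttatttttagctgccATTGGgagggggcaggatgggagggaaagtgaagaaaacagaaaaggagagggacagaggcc
LAMB1: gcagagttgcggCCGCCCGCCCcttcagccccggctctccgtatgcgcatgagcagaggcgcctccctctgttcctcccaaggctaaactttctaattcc
LAMB2: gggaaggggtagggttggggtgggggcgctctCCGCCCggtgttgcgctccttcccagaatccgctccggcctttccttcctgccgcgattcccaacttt
ITGAV: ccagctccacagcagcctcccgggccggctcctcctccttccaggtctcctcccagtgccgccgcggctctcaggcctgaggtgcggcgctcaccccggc

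The matches differed between the windows. ITGA10 held 1 TEAD motif and 1 CCAAT box, both on the opposite strand. LAMB1 held 2 overlapping GC boxes and LAMB2 held 1, also on the opposite strand, and ITGAV held none of the 6 motifs. Over the 250 bases before the start, a GC box was found in 10 of the 15 tested members with an entry and in 3 of the 11 untested ones, against 42.6% of 35116 RefSeq promoters. A TEAD motif was found in 3 of the 15 tested members against 11.9% of all promoters, a CCAAT box in 2 against 32.0%, a TATA box in 1 against 10.7%, an E box in 1 against 6.34% and an AP-1 motif in 0 against 6.57%. The median GC content of these windows was 70% in the tested members and 53.2% in the untested, beside 58% over all promoters.

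Intron counts over time followed exon counts for some members and not for others. In DMSO 4 of 16 members passed, 3 higher and 1 lower (33.4% of all genes called), and in cisplatin 6 of 16 passed, 4 higher and 2 lower (31.8% of all genes). Without overlap between the times, 4 members were higher and 2 lower in DMSO (43.11% of all genes). In cisplatin 6 were higher and 3 lower without overlap (42.15% of all genes). ITGA10 introns, in CPM of intron counts, were at 640.4, 612 and 663 CPM in DMSO at 24 h and 698, 747 and 606 CPM in cisplatin at 24 h. In DMSO at 72 h the level was 1030.4, 965 and 1035 CPM, and in cisplatin it was 1022, 974 and 1031 CPM. They rose by 0.66 ± 0.09 and 0.56 ± 0.08 (adjusted p = 6.92e-09 and 4.39e-07, edgeR), the same direction as the exons. ITGAX introns rose by 1.53 ± 0.18 and 1.30 ± 0.17 (adjusted p = 7.52e-10 and 2.26e-08, edgeR), beside 1.43 ± 0.17 and 1.58 ± 0.16 for its exons. ITGAX carried nearly as many intron as exon counts, with an exon to intron ratio of 1.13 ± 0.253 in DMSO at 24 h (SD, n = 3).

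LAMB1 was the only member whose exons and introns moved in opposite directions, both past the threshold in both arms. Its introns were at 938, 925 and 896 CPM in DMSO at 24 h and 982, 887 and 914 CPM in cisplatin at 24 h. The 72 h libraries held 740.2, 746 and 707 CPM in DMSO and 734, 722 and 756 CPM in cisplatin. Every 72 h library lay below every 24 h library, with log2 changes of -0.33 ± 0.08 in DMSO and -0.33 ± 0.08 in cisplatin (adjusted p = 0.0011 and 0.00105, edgeR), while its exons rose. The exon to intron ratio of LAMB1 was 20.6 ± 0.244 in DMSO at 24 h, 19.2 ± 1.47 in cisplatin at 24 h, 39.6 ± 1.53 in DMSO at 72 h and 38.9 ± 2.34 in cisplatin at 72 h (SD, n = 3 each). DLD, an enzyme gene on the opposite strand that overlaps LAMB1, was listed with at most 3 exon counts in any library although its introns held 808 counts in all. Its part in the counts of LAMB1 was not tested.

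ITGB5 passed in introns and not in exons, but its introns entered the test through the 72 h libraries. These introns were few, with 4 to 11 counts per library at 24 h and 15 to 44 at 72 h. They were at 3.71, 2.55 and 4.25 CPM in DMSO at 24 h and 4, 3.98 and 3.31 CPM in cisplatin at 24 h. At 72 h the DMSO libraries held 8.81, 10.5 and 11.3 CPM and the cisplatin libraries 9.58, 9.47 and 9.41 CPM. The fitted changes were 1.57 ± 0.42 in DMSO and 1.30 ± 0.40 in cisplatin (adjusted p = 0.00268 and 0.00873, edgeR), and every 72 h library of an arm lay above every 24 h library of that arm. Because of the way these introns entered the test, no direction is drawn from them. LAMC1 introns rose in cisplatin by 0.42 ± 0.15 (adjusted p = 0.0296, edgeR), a call lost without replicate 3 of cisplatin at 24 h (0.36, adjusted p = 0.104), without replicate 1 of cisplatin at 72 h (0.37, adjusted p = 0.105) and without replicate 3 of cisplatin at 72 h (0.40, adjusted p = 0.0743).

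ITGA1 was unusual in having more intron than exon counts, 1209 to 3870 against 192 to 632 per library. PELO, a ribosome rescue gene, lies inside ITGA1 on the same strand and had 1172 to 3763 exon counts per library. Over time PELO exons changed by -0.19 ± 0.06 in DMSO and -0.29 ± 0.06 in cisplatin, and ITGA1 introns by -0.14 ± 0.08 and -0.23 ± 0.08 (adjusted p = 0.186 and 0.0278, edgeR). Reads that the intron counts of ITGA1 may share with PELO cannot be told apart. Its call in cisplatin was lost without replicate 3 of cisplatin at 24 h (-0.18, adjusted p = 0.132) and without replicate 1 or replicate 3 of cisplatin at 72 h (-0.22 and -0.21, adjusted p = 0.0795 and 0.113).

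**Figure D4:**
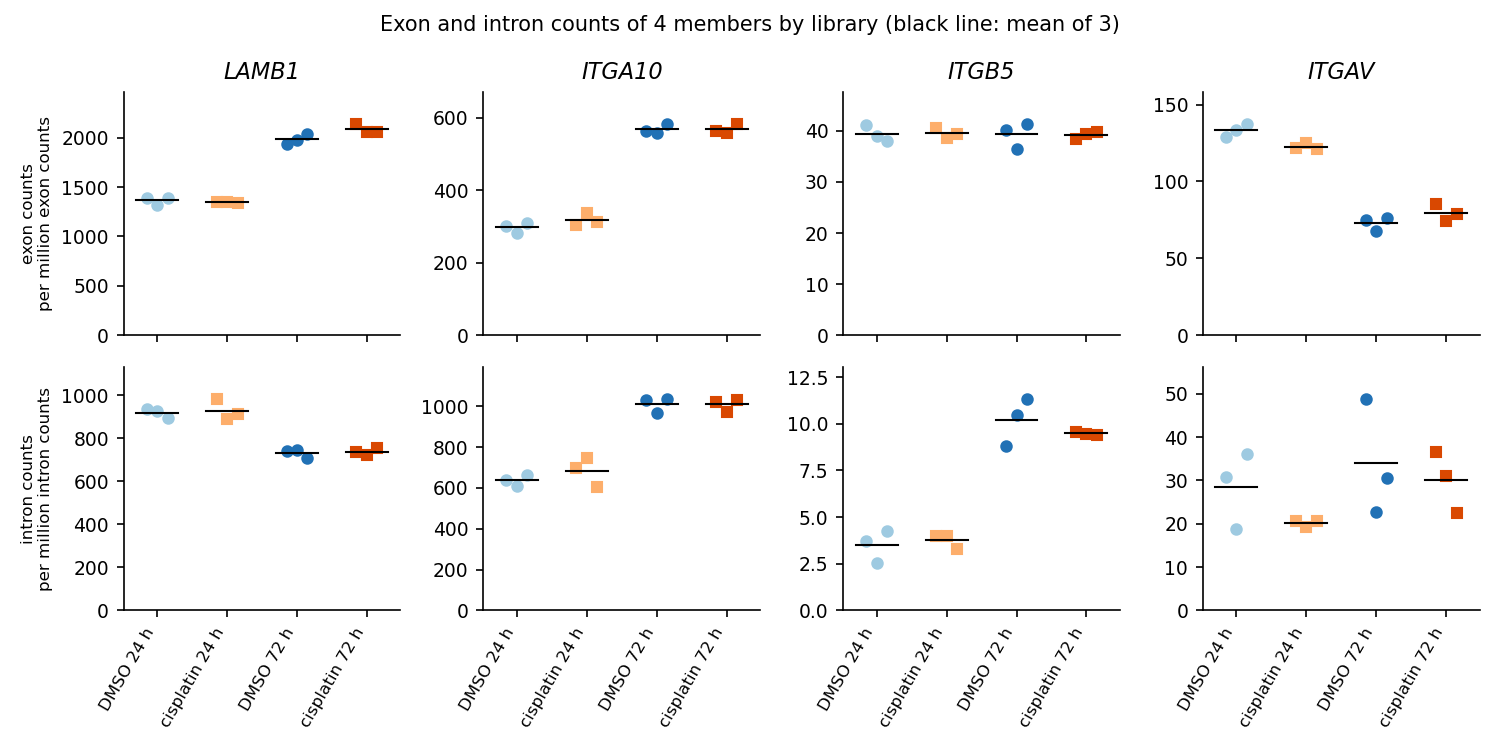
Exon counts (upper row, CPM of exon counts) and intron counts (lower row, CPM of intron counts) of LAMB1, ITGA10, ITGB5 and ITGAV, 1 point per library with the mean of 3 as a black line. LAMB1 exons rise and its introns fall from 24 h to 72 h, and ITGA10 rises in both. The exon points of ITGB5 overlap, and its intron points lie higher at 72 h, but they rest on 4 to 11 counts per library at 24 h. ITGAV falls in exons while its intron points overlap between the times in DMSO and not in cisplatin.

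The ratio of exon to intron counts, tested in a joint edgeR model of both kinds of count, changed over time in 6 of 18 members in DMSO (11.5% of all genes called) and 6 of 18 in cisplatin (11.9%), in each arm 4 higher and 2 lower. Over all genes tested the median ratio itself moved by 0.10 in DMSO and 0.11 in cisplatin on the log2 scale, and the member values are to be read against it. This shift itself rested in part on single libraries, since it was 0.06 in DMSO without replicate 3 at 24 h and 0.05 in cisplatin without replicate 2 at 24 h. The genes called fell from 1075 to 706 in DMSO without replicate 3 at 24 h and to 699 without replicate 2 at 72 h, and from 1118 to 636 in cisplatin without replicate 2 at 72 h. LAMB1 had the smallest adjusted p, with changes of 0.95 ± 0.10 and 1.03 ± 0.10 (adjusted p = 1.86e-07 and 6.97e-08). LAMB2 rose by 0.46 ± 0.11 and 0.54 ± 0.11 (adjusted p = 0.00589 and 0.00146) and LAMA5 by 0.45 ± 0.12 and 0.53 ± 0.11 (adjusted p = 0.0115 and 0.00241). Laminin chains thus made up 3 of the 4 members with a higher ratio in both arms. ITGA10 was the other, at 0.34 ± 0.11 and 0.34 ± 0.11 (adjusted p = 0.0353 and 0.0344).

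The members called lower were ITGB5 and ITGAV. The ratio of ITGB5 changed by -1.52 ± 0.34 in DMSO and -1.21 ± 0.31 in cisplatin (adjusted p = 0.00365 and 0.00996, edgeR). Its introns met the count minimum mainly through the 72 h libraries, so no direction is drawn from this ratio. That of ITGAV changed by -1.04 ± 0.24 and -1.16 ± 0.24 (adjusted p = 0.00485 and 0.00184, edgeR). ITGAV introns were at 30.7, 18.8 and 36.1 CPM in DMSO at 24 h and 20.6, 19.2 and 20.7 CPM in cisplatin at 24 h. Values at 72 h were 48.8, 22.6 and 30.6 CPM in DMSO and 36.5, 31 and 22.4 CPM in cisplatin. They overlapped between the times in DMSO and lay higher at 72 h without overlap in cisplatin, where the intron change was 0.60 ± 0.24 (adjusted p = 0.0534, edgeR). Several DMSO calls hung on 1 library: without replicate 1 of DMSO at 72 h ITGAV stood at -0.77 (adjusted p = 0.0550) and LAMA5 at 0.41 (adjusted p = 0.0547), and without replicate 3 of DMSO at 24 h LAMA5 stood at 0.38 (adjusted p = 0.0629). ITGA10 lost its call when any of 5 of the 6 libraries of an arm was left out. It did so in DMSO (0.31 to 0.35, adjusted p = 0.0726 to 0.112; kept only without replicate 2 of DMSO at 24 h) and in cisplatin (0.27 to 0.36, adjusted p = 0.0683 to 0.137; kept only without replicate 3 of cisplatin at 24 h).

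**Figure D5:**
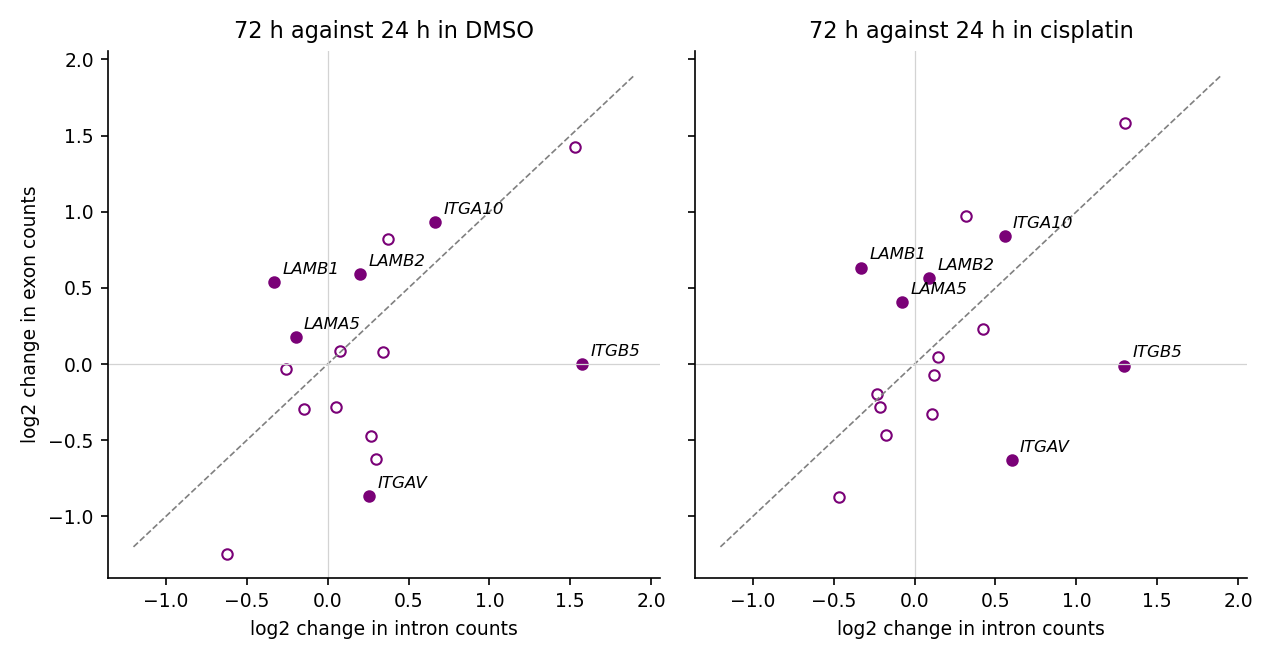
Log2 change in exon counts (y axis) against log2 change in intron counts (x axis) from 24 h to 72 h for the 16 members tested in both, in DMSO (left) and cisplatin (right). The dashed line marks equal change. Named filled points passed an adjusted p of 0.05 for the exon to intron ratio in edgeR: LAMB1, LAMB2, LAMA5 and ITGA10 lie above the line, ITGB5 and ITGAV below it. ITGB5 introns met the count minimum mainly through the 72 h libraries, so no direction is drawn from that point.

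Between cisplatin and DMSO the edgeR ratio test called 0 of 18 members at 24 h (0% of all genes) and 0 of 18 at 72 h (0.0213% of all genes). Before adjustment, p was under 0.05 for 0 and 1 members, beside 594 and 585 of the 9380 genes. The logistic regression of the study's own methods, which treats every read as independent and so leaves out the spread between replicates, called more. At 24 h it called 3 of 18 members (11.5% of all genes), all with a lower ratio in cisplatin: LAMB1 at -0.12 ± 0.03, ITGA10 at -0.13 ± 0.04 and LAMA5 at -0.17 ± 0.06 (adjusted p = 0.00111, 0.00702 and 0.0391, logistic regression). Without replicate 2 of cisplatin at 24 h, ITGA10 stood at -0.04 and LAMA5 at -0.06 (adjusted p = 0.662 and 0.764, logistic regression). ITGA10 was at -0.21 without replicate 3 of cisplatin at 24 h, and LAMA5 at -0.10 without replicate 1 of DMSO at 24 h. At 72 h it called 3 of 20 (11.4% of all genes): ITGAX higher at 0.36 ± 0.11, ITGAE lower at -0.36 ± 0.10 and ITGA10 lower at -0.07 ± 0.02 (adjusted p = 0.0224, 0.00778 and 0.0377, logistic regression). Without replicate 3 of DMSO at 72 h, ITGAE stood at -0.59. Over all genes the median logistic change was itself -0.11 at 24 h, with 1036 genes called lower and 74 higher, and -0.07 at 72 h, with 971 lower and 173 higher, and the lower values of LAMB1, ITGA10 and LAMA5 are to be read against it. Without replicate 2 of cisplatin at 24 h that median was -0.04 and 245 genes were called in place of 1110, and without replicate 2 of DMSO at 24 h it was -0.06 and 503 were called. At 72 h, 729 genes were called without replicate 1 of DMSO in place of 1144. With the spread between replicates in the model, as a quasi-binomial fit, 0 of these 6 calls remained. Over all genes that fit called 0 of 9678 at 24 h and 0 of 10011 at 72 h. The logistic counts also went to 0 without replicate 2 of cisplatin at 24 h and without replicate 2 of DMSO at 72 h, and to 1 without replicate 2 of DMSO at 24 h and without replicate 1 of DMSO at 72 h. Over time the logistic regression called 9 of 19 members in DMSO (33.7% of all genes) and 7 of 19 in cisplatin (40.6%), against 1 and 3 in the quasi-binomial fit, which called 64 of 9739 genes in DMSO and 97 of 9818 in cisplatin.

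The genes that link integrins to the cytoskeleton were listed for comparison, with the list chosen when earlier results of these data were known. Of 30 genes 27 were in the table and 26 were tested. None passed between cisplatin and DMSO at either time. Over time 6 rose and 14 fell in DMSO (median -0.20), and 8 rose and 10 fell in cisplatin (median -0.08). The shares called, 76.9% and 69.2%, stood near the 65.1% and 63.5% of all genes. TLN1, the talin that activates integrins, fell by 0.87 and 0.64 in the 2 arms (adjusted p = 4.06e-11 and 8.72e-09, edgeR). The actin cross-linkers ACTN4 and FLNA fell by 0.78 and 0.75 in DMSO (adjusted p = 9.3e-11 and 6.78e-10, edgeR) and by 0.52 and 0.42 in cisplatin (adjusted p = 7.81e-08 and 5.95e-06, edgeR). PTK2B, a relative of focal adhesion kinase, rose by 1.09 ± 0.08 and 1.13 ± 0.08 (adjusted p = 1.18e-11 and 6.54e-12, edgeR). RSU1 and ITGB1BP1, which bind the ILK complex and the tail of ITGB1, fell by 0.46 and 0.82 in cisplatin (adjusted p = 6.16e-09 and 4.7e-11, edgeR) and by 0.24 and 0.58 in DMSO (adjusted p = 7.64e-05 and 1.78e-08, edgeR).

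A list of matrix partners and other laminin receptors held 25 genes, of which 23 were in the table and 17 were tested. Again none passed between cisplatin and DMSO. Over time 5 rose and 7 fell in DMSO (median -0.04), and 6 rose and 7 fell in cisplatin (median 0.06). The shares called were 70.6% and 76.5%, again beside 65.1% and 63.5% of all genes. NID1, the nidogen that joins laminin to collagen of the basement membrane, fell by 0.62 in DMSO and 0.35 in cisplatin (adjusted p = 1.9e-10 and 2.05e-06, edgeR) beside the values of its laminin partner LAMC1 given above. TGFB1, whose latent form is bound by ITGAV pairs, fell by 0.47 and 0.36 (adjusted p = 7.84e-08 and 4.26e-06, edgeR). ADAM9, a membrane protease, fell by 0.53 and 0.38 (adjusted p = 3.14e-09 and 6.16e-07, edgeR) and the proteoglycan SDC4 by 0.57 and 0.39 (adjusted p = 1.47e-07 and 2.38e-05, edgeR). FN1, the fibronectin that ITGA5 with ITGB1 binds, rose by 0.31 ± 0.08 in DMSO and 0.48 ± 0.08 in cisplatin (adjusted p = 0.00106 and 7.94e-06, edgeR).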

How the data were processed

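RNA of the 12 TYK-nu libraries was selected by poly(A) and sequenced as pairs from a directional kit. Per the labels and methods, the authors trimmed with Trim Galore 0.6.0, checked quality with FastQC 0.11.8, aligned to GRCh38 with HISAT2 2.1.0 and counted exon and intron fragments per Ensembl 98 gene with HTSeq-count (intersection-strict for exons, union for introns). The strand setting is not given in the sources used here. The deposited values are raw counts; 423 genes had no exon entry and 913 no intron entry, and 0 count columns were left unassigned. Symbols, positions and exon lengths came from GENCODE 44 on GRCh38.

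Exon and intron counts were fitted separately over all 12 libraries in edgeR 4.0.16 (R 4.3.3; TMM scaling, filterByExpr with a minimum of 10 counts, quasi-likelihood test, Benjamini-Hochberg adjustment over all genes tested, threshold 0.05). CPM used the scaled library sizes of the same kind of count. Exon to intron ratios were tested as an interaction of count kind and group in edgeR for genes with at least 10 counts in 3 libraries, and by logistic regression as in the study. DESeq2 1.42.0, other scalings, no filter, a replicate block, the 6 compared libraries alone and leaving out each library were alternatives; total counts without scaling factors were added after seeing the data. Scripts were tested on simulated data. Members and lists were chosen with earlier results of these data known. Values in every library are given for the 14 members with the smallest adjusted p in exon counts over the 4 comparisons. One tested member is counted in all totals but is not reported here by name or drawn, and neither is 1 marker gene.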

Additional observations from a re-analysis of the deposited data

Results flagged for a closer look

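ITGAE exon counts were set apart because every cisplatin library lay above every DMSO library at 24 h, with a log2 change of 0.22, and below every DMSO library at 72 h, with a log2 change of -0.21. The difference between these effects was -0.43 ± 0.13 on the log2 scale, with an unadjusted p of 0.00287 and an adjusted p of 0.454 in edgeR, so it did not pass over all genes.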

How the results depend on the processing

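No result reversed under any alternative. Among the alternative values for single members, 672 kept their direction and side of the threshold, 53 lost the call and 7 gained it. Counts of members called over time in exon counts stayed at 13 to 15 in every alternative. For exon counts at 72 h, cisplatin against DMSO, the count was 1 in DESeq2 and 1 with no filter, in place of 0, while over all genes 79 were called in DESeq2 and 154 with no filter in place of 3, and 72 without replicate 3 of DMSO at 72 h. With no filter, 7 genes were called at 24 h and 20 for the difference between the times, in place of 0. For intron counts between cisplatin and DMSO at 72 h, 19 genes were called with no filter and 26 from the 6 compared libraries alone in place of 4, with 0 members among them. For intron counts over time in DMSO the members' count was 7 with total counts without scaling factors, in place of 4. Over all genes 3514 were then called in place of 3216. Leaving out 1 library gave 3 to 6 for the edgeR ratio over time in DMSO (3 without replicate 1 of DMSO at 72 h) and 0 to 4 for the logistic ratio at both 24 h and 72 h. The quasi-binomial model gave 0 at 24 h, 0 at 72 h, 1 over time in DMSO and 3 over time in cisplatin. Over all genes it called 0, 0, 64 and 97 in the same order. The cause of these changes was not tested, except that the quasi-binomial model by construction adds the spread between replicates.

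Replicate numbers did not pair the libraries: deviations of libraries with the same number correlated at -0.20 to 0.13, and not every pair of any comparison exceeded 0.1. With a replicate block the members' counts over time in DMSO and cisplatin were 14 and 15 in exon counts (6751 and 6538 of 10444 genes). They were 4 and 6 in intron counts (3154 and 3005 of 9618 genes) and 5 and 5 in the edgeR ratio (957 and 974 of 9380 genes). ITGA10 lost its call in that ratio (adjusted p = 0.0560 and 0.0554, edgeR). For the logistic ratio of cisplatin against DMSO they were 2 at 24 h and 4 at 72 h (1029 of 9678 and 1273 of 10011 genes). Depth limits the scarce members most: ITGA7 had at most 63 exon counts, and ITGB5 4 to 44 intron counts.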
